A study of Homo sapiens with 4 samples.

Results

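MEST and 9 other imprinted genes (PEG3, PEG10, SGCE, IGF2, DLK1, NNAT, H19, MEG3 and CDKN1C) were examined in A2780s cells, an epithelial ovarian cancer (EOC) cell line, after stable shRNA-mediated knockdown of GALNT3. All probes whose accession belongs to one of these genes were taken, which gave 12 probes for 10 genes among the 41000 probes of the array, and 16882 named genes were measured in all. The genes were chosen from the knockdown over ctrl ratios of these same arrays, so those ratios are given as a description with no test. Total RNA of 2 knockdown clones (sh-G1 and sh-G2), which were stably transfected with the same shRNA against GALNT3, was compared with that of 1 clone mock-transfected with the vector (ctrl). All 3 clones were selected in puromycin. Two-colour Agilent arrays carried a knockdown clone and ctrl together, 2 arrays per clone with the dyes exchanged and 4 in all, with the knockdown RNA in Cy5 in replicate 1 and in Cy3 in replicate 2. In the ratios against ctrl the 2 arrays of a clone were treated as 1 replicate, which leaves 2 knockdown clones and 1 ctrl clone. The test between the knockdown clones used the 4 arrays singly.

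A genomically imprinted gene is transcribed mainly from the copy inherited from one parent. The parental copies differ in DNA methylation or histone marks that go back to the germ line. Imprinted genes lie in clusters that a shared control region governs, so that a paternally and a maternally expressed gene are often neighbours, as are IGF2 and H19 or DLK1 and MEG3. Many act on fetal and placental growth, and loss or gain of their expression is a frequent event in tumors, including those of the ovary.

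The MEST gene, also called PEG1, encodes a hydrolase-like protein and is transcribed from the paternal copy in many fetal tissues. It has more than one start site, and imprinting concerns mainly the downstream promoter, a CpG island, while transcripts from the upstream start can come from both copies. The reference windows of its first and last start (250 bases before to 50 after the start) are shown. The reasons are that the lowest mean ratio of all probes belonged to this gene and that CpG sites are where the imprint is written. Methylation and parental copy were not measured, and which start the MEST probe reads was not examined. CG dinucleotides are in capitals. Both windows are on the + strand of GRCh38.p14 from RefSeq, a newer build than that of the array design. They are chr7:130485925-130486224, with 13 CG in 300 bases, and chr7:130491835-130492134, with 25.
MEST first start: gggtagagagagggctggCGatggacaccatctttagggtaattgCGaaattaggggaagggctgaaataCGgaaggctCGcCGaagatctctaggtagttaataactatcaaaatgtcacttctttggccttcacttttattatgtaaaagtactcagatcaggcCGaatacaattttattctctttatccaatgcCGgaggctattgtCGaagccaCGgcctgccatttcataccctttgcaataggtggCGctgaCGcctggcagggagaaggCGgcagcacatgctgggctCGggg
MEST last start: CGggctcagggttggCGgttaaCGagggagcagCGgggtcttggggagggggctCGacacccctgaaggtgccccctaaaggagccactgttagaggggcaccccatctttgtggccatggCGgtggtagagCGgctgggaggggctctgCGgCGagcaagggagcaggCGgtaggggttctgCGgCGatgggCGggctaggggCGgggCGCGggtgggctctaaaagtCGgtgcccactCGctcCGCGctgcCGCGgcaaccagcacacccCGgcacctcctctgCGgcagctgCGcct

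Of the 10 members, 3 matched an entry of the promoter table (MEST, H19 and MEG3), and PEG3, PEG10, SGCE, IGF2, DLK1, NNAT and CDKN1C did not. The 5 MEST windows held 13, 22, 16, 22 and 25 CG in order of position, the 3 MEG3 windows 17 to 19 and the H19 window 6, against a median of 14 over 35116 windows of the same length. The motif TGCCGC, bound by the imprint-protecting zinc finger protein ZFP57 when methylated, was searched on both strands. In order of position the 5 MEST windows had 1, 1, 0, 2 and 3 matches. Each of the 3 MEG3 windows had 1 and the H19 window 0, and 16.7% of all windows held at least 1. The letters GCCATNTT, a core of the YY1 motif, had 0 matches in the windows of all 3 genes and were held by 6.58% of all windows. The H19 window, chr11:2001217-2001516 on the - strand, is shown for comparison with that of MEST, with CG again in capitals.
H19 start: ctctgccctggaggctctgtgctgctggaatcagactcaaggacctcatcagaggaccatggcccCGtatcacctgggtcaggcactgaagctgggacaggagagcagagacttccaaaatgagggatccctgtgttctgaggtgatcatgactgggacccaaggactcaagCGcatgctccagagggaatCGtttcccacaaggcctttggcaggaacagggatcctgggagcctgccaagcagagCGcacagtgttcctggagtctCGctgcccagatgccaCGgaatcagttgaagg

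Both genes also host a miRNA, for which values were not analysed here. The mature sequences are shown with the seed (bases 2 to 8) in capitals, because their host transcripts were among the lower members. All 4 seeds differ.
hsa-miR-335-5p (in MEST, chr7:130496126-130496148): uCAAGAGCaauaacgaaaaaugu
hsa-miR-335-3p (in MEST, chr7:130496162-130496183): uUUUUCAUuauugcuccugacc
hsa-miR-675-5p (in H19, chr11:1996800-1996822): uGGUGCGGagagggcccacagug
hsa-miR-675-3p (in H19, chr11:1996768-1996787): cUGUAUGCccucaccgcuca

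A probe was kept if it had a value on every array and stood clearly out of the background in one channel or both there, which 39152 did, the 12 member probes among them. The member probes were well above background in both channels throughout. Per channel, 88.1% to 97.6% of spots passed this mark of the scanner software, and 0 were saturated. With so many spots passing, the mark does not show that a dim signal is specific, so the ratio of a dim member may be a bound. The GALNT3 probe itself, the check of the knockdown, had log2 ratios of -0.09 and 0.08 in sh-G1 and of 0.12 and -0.14 in sh-G2, and its signal in the knockdown clones passed that mark on 2 of 4 arrays only. The arrays therefore did not show the knockdown. With a knockdown signal this close to background, the probe cannot decide whether GALNT3 RNA fell. The paper reports significantly less GALNT3 in both clones than in ctrl, with RT-PCR for the RNA and Western blots for the protein. The groups used here are those of the labels. Bulk RNA was measured, so fewer expressing cells and less RNA per cell cannot be told apart.

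MEST had the lowest mean log2 ratio of all 39152 probes. The paper, from these same arrays, already lists MEST among its downregulated genes. The deposited processed signal, which the scanner software had corrected for background and dye, was 15444, 15814, 18479 and 10892 in ctrl on the 4 arrays, in the order sh-G1 replicates 1 and 2 and sh-G2 replicates 1 and 2. In the knockdown clones it was 951, 871, 515 and 213 on the same arrays. The groups did not overlap, and the brightest knockdown signal was far below the dimmest ctrl signal. Since the ratios of these arrays chose the members, nothing is read from this, and the 4 ctrl signals come from 1 clone. The log2 ratios were -4.05 and -3.92 in sh-G1 and -5.19 and -5.26 in sh-G2, with a mean of -4.60 ± 0.88 (SD, n = 2 clones). This is a 15.8-fold lower level in sh-G1 and a 37.4-fold lower level in sh-G2. The remaining knockdown signal was still 8.84 to 23.1 times the local background, against 290 to 615 times in ctrl. In sh-G2 its median spot intensity was 426.5 in replicate 1 and 442 in replicate 2. The medians over all spots of those channels were higher, at 469 and 594. Whether this signal is remaining MEST RNA was not tested, so the 37.4-fold value of sh-G2 may be a lower bound. Exchanging the dyes moved the MEST log2 ratio by -0.03 only (knockdown in Cy5 minus knockdown in Cy3), while the median absolute shift over all kept probes was 0.23.

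**Figure D1:**
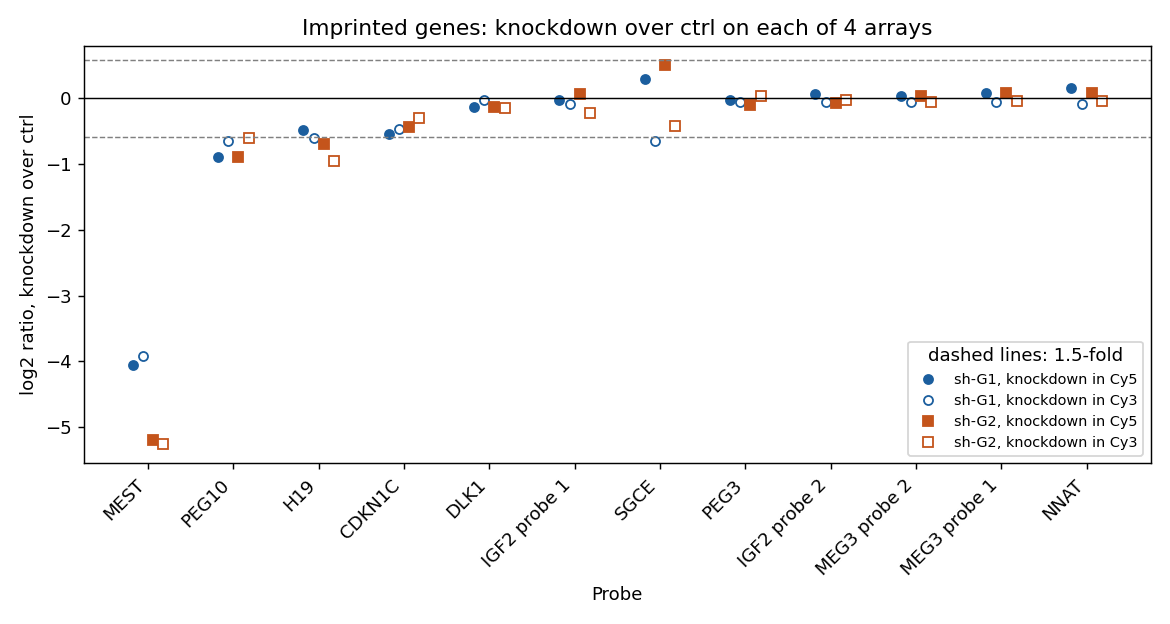
Log2 ratio of knockdown over ctrl (vertical axis) for the 12 probes of the 10 imprinted genes (horizontal axis, probe 1 the brighter), with 1 point per array. Circles are sh-G1 and squares sh-G2, filled where the knockdown RNA carried Cy5. MEST lies between -5.26 and -3.92, PEG10 below the dashed 1.5-fold line on all 4 arrays, and the SGCE points change sides with the dye.

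PEG10, which encodes a protein derived from a retrotransposon gag-pol sequence and is needed for placenta formation, was the second member at least 1.5-fold lower on all 4 arrays. Its processed signal was 663, 753, 782 and 474 in ctrl and 367, 397, 474 and 263 in the knockdown clones, lower on every array, although the ranges of both groups touched near 474. The log2 ratios were -0.90 and -0.65 in sh-G1 and -0.90 and -0.61 in sh-G2 (mean -0.77). The values with the knockdown in Cy3 lay close to the threshold, which is -0.58 on the log2 scale.

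SGCE, the gene of epsilon-sarcoglycan, a membrane protein mutated in myoclonus dystonia, lies head to head with PEG10 and shares its imprinted promoter region. Its log2 ratios were 0.28 and -0.65 in sh-G1 and 0.50 and -0.43 in sh-G2. Both clones were above 0 with the knockdown in Cy5 and below 0 with the knockdown in Cy3. The shift between the dyes was 0.93, as large as or larger than in all but 1.47% of the kept probes, so no direction can be given for SGCE. The processed signal was 1465, 1729, 1428 and 1089 in ctrl and 1522, 1412, 1421 and 1031 in the knockdown clones, and the groups overlapped. By these signals the knockdown was the higher one on replicate 1 of sh-G1 only. The change of sign with the dye in sh-G2 thus depended on the background and dye correction.

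H19, a maternally expressed noncoding RNA that is abundant in the fetus, had log2 ratios of -0.48 and -0.61 in sh-G1 and -0.69 and -0.96 in sh-G2 (mean -0.69). Its processed signal was 2004, 1874, 2178 and 1126 in ctrl and 1316, 1338, 1243 and 583 in the knockdown clones. The processed signal was lower on each array. By the log2 ratios replicate 1 of sh-G1 did not reach 1.5-fold, while by the processed signals replicate 2 of sh-G1 did not. IGF2, the growth factor gene that is expressed from the opposite copy in the same cluster, was close to 0 with both probes, from -0.23 to 0.06 for the brighter and from -0.07 to 0.07 for the other.

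CDKN1C, a maternally expressed gene for the cell cycle inhibitor p57, had log2 ratios of -0.54 and -0.46 in sh-G1 and -0.44 and -0.31 in sh-G2. None of the 4 values reached 1.5-fold. Its processed signal was 1176, 1570, 1314 and 1134 in ctrl and 915, 828, 1355 and 797 in the knockdown clones. On replicate 1 of sh-G2 the processed knockdown signal was thus the higher one, and the direction for that array depended on the background and dye correction.

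The other members showed values near 0. DLK1, an inhibitory ligand of the Notch family and marker of preadipocytes, lay between -0.15 and -0.02 on the 4 arrays. MEG3, the maternally expressed noncoding RNA of the same cluster, lay between -0.06 and 0.08 with the brighter of its 2 probes and between -0.06 and 0.04 with the other. PEG3, a zinc finger gene of paternal expression, lay between -0.11 and 0.04, and NNAT (neuronatin), a small membrane protein gene, between -0.09 and 0.15. PEG3 and NNAT were also the dimmest members, at 3.33 to 7.60 times the local background over both channels. An offset of 50 was added to all intensities before the logarithm, which shrinks the ratios of such dim probes.

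**Figure D2:**
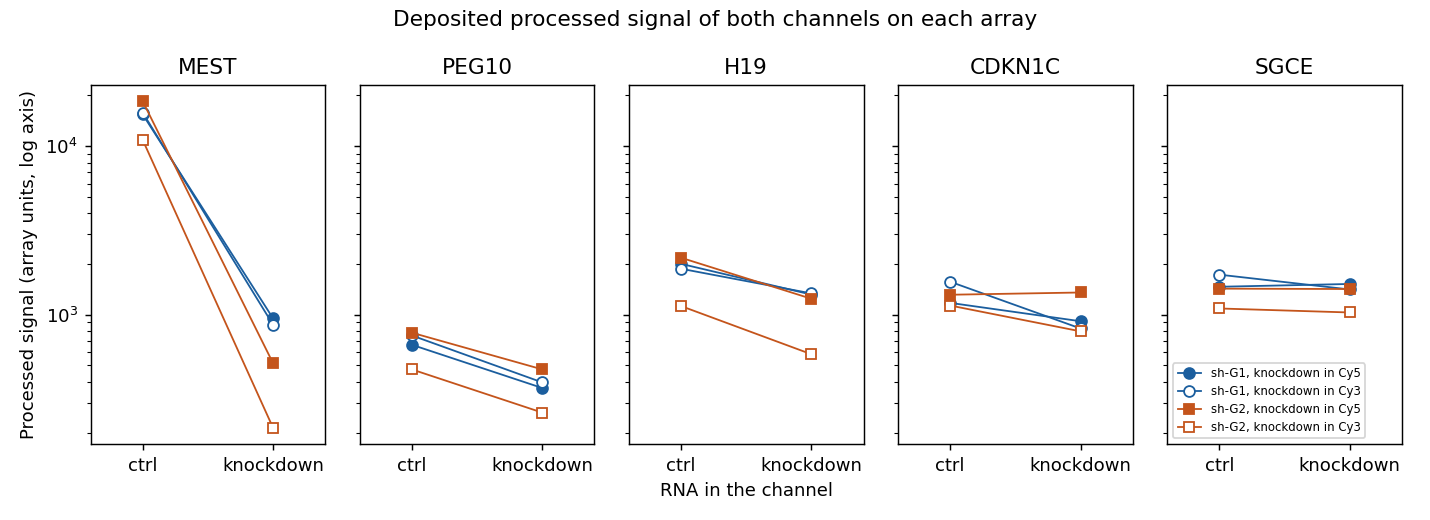
Deposited processed signal in array units on a log axis (vertical) of the ctrl and the knockdown channel (horizontal), with 1 line per array, for 5 members. MEST is at 10892 to 18479 in ctrl and at 213 to 951 in the knockdown clones, PEG10 and H19 are lower on each array by less, and CDKN1C and SGCE do not move the same way on all arrays.

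By direction, 5 of the 10 members (MEST, PEG10, H19, CDKN1C and DLK1) were below 0 on all 4 arrays, against 9.05% of all kept probes, though CDKN1C and DLK1 were not with the software's own ratio, and 0 members were above 0 on all 4, against 6.2%. At least 1.5-fold lower on all 4 arrays were 2 members, MEST and PEG10, against 0.919% of all kept probes, and at least 1.5-fold higher were 0, against 0.23%. Since the same ratios chose the members, nothing is read from these counts. Just outside the threshold was H19, with -0.48 as its highest value, and just inside was PEG10, with -0.61. Of the 7 paternally expressed members 3 were below 0 on all 4 arrays, and of the 3 maternally expressed members 2 were. The median of the members' mean log2 ratios was -0.09, and that of all kept probes 0.00.

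**Figure D3:**
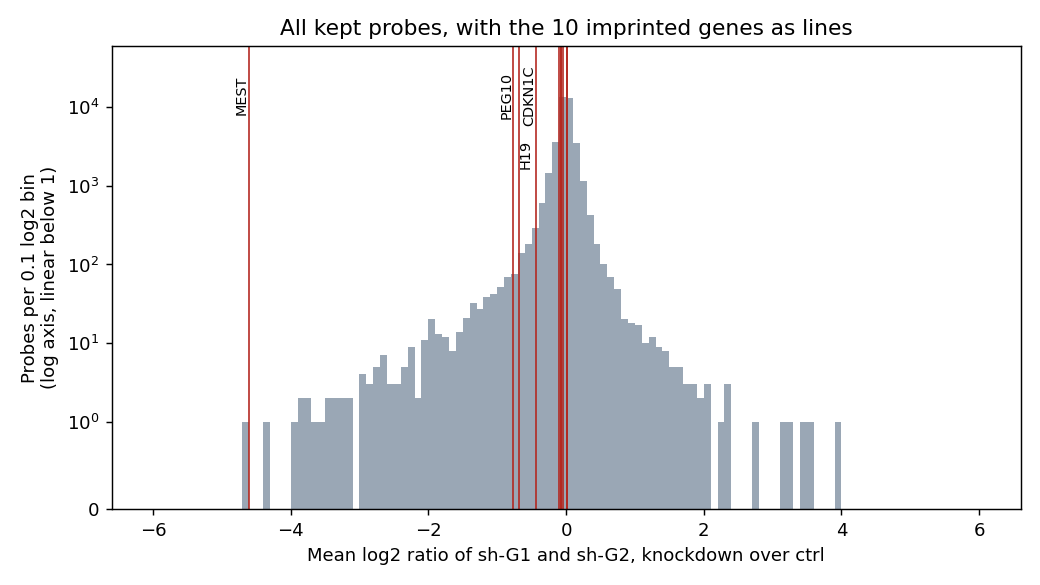
Number of probes (vertical axis, logarithmic above 1) per bin of the mean log2 ratio of both clones (horizontal axis) for all 39152 kept probes, with the brightest probe of each of the 10 imprinted genes as a line. The MEST line is at the lower end, at -4.60, and that of PEG10 at -0.77, while most lines lie within the main peak around 0.

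Whether the knockdown clones differed from each other was tested next, since ctrl cancels in this difference and it did not enter the choice of the members. The sh-G1 minus sh-G2 difference was tested with limma over all 39152 kept probes, with a term for dye and Benjamini-Hochberg adjustment, and 0.11% of the probes were called. None of the 10 members was called (0 of 10), and 1 had an unadjusted p under 0.05, as did 7.43% of all kept probes. MEST was this gene, with a difference of 1.24 on the log2 scale (95% interval 0.89 to 1.59) and an adjusted p = 0.098 by limma. MEST was lower in sh-G2 than in sh-G1 on both dye orientations, but the difference failed the correction.

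For the other members the intervals of the clone difference give its possible size. For PEG10 the difference was -0.02 (95% interval -0.27 to 0.23) and for CDKN1C -0.13 (-0.42 to 0.16). H19 differed by 0.28 (-0.04 to 0.60, adjusted p = 0.742 by limma). With the software's own ratio the CDKN1C difference was -0.41, and with 1 array left out that of PEG10 ran from -0.16 to 0.12 and that of H19 from 0.15 to 0.41. These p-values measure only the spread between arrays of the same clone, which may be technical.

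Of 8 genes listed beside MEST, 0 passed limma (mean of the clones against 0, Benjamini-Hochberg), against 0.138% higher and 0.7% lower over all kept probes. Their mean log2 ratios ran from -0.16 (KLF14) to 0.07 (CEP41). MESTIT1, an antisense RNA that starts within the MEST gene, had log2 ratios of 0.02 and -0.11 in sh-G1 and -0.07 and -0.09 in sh-G2. COPG2, the gene of a coat protein subunit that follows MEST tail to tail, was at -0.40 and 0.47 in sh-G1 and at -0.55 and 0.34 in sh-G2, so its sign followed the dye. Among the 10 measured genes on each side of MEST in RefSeq order, 1 of 20 was at least 1.5-fold changed on all 4 arrays, PODXL. Of all kept probes 0.919% were lower and 0.23% higher by this rule. PODXL, which encodes the sialomucin podocalyxin, had a mean of -0.83 (limma adjusted p = 0.027). It is also among the downregulated genes that the paper lists from these arrays.

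Around PEG10, 0 of the 20 nearest measured genes were at least 1.5-fold changed on all 4 arrays, against 0.919% lower and 0.23% higher over all kept probes. Their median of mean log2 ratios was -0.04. PPP1R9A, an actin-binding neurabin gene that comes next after PEG10, had 2 probes that were lower in sh-G1 only. Its brighter probe was at -0.53 and -0.53 in sh-G1 and at 0.19 and 0.10 in sh-G2, and the other at -1.64 and -1.12 against 0.22 and 0.22. The clone difference of the second probe, -1.60 (95% interval -2.01 to -1.20), did not pass the correction (adjusted p = 0.080, limma). PPP1R9A was named after its values were seen.

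**Figure D4:**
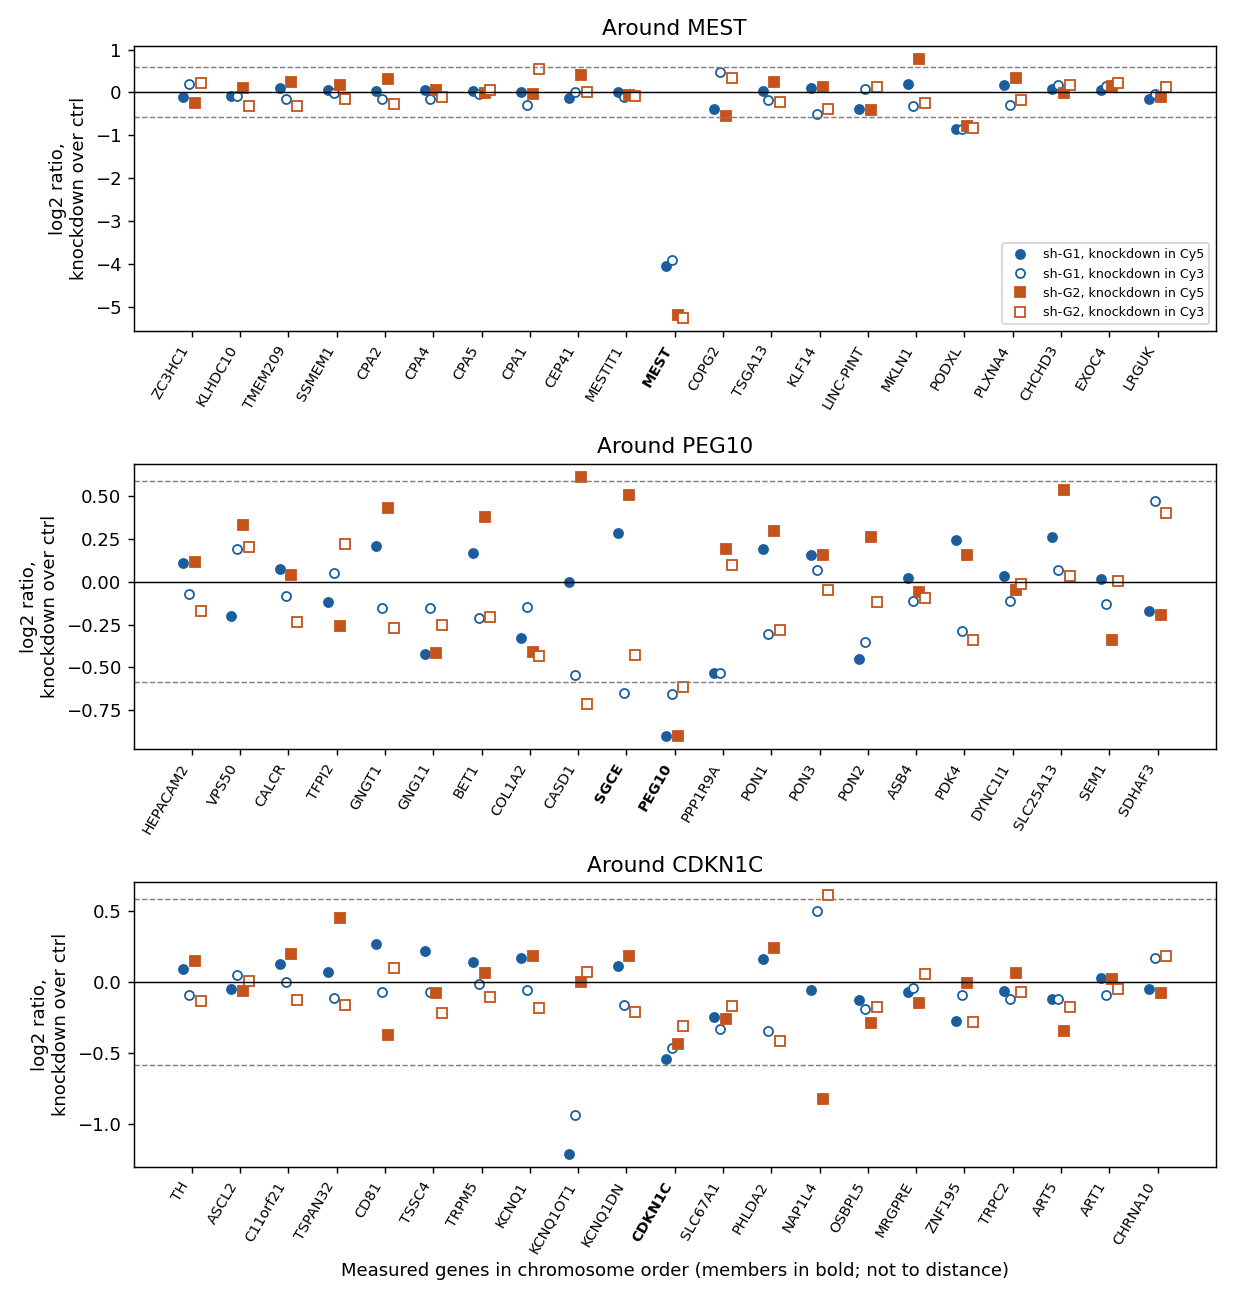
Log2 ratio of knockdown over ctrl (vertical axis) for the 10 measured genes on each side of MEST, PEG10 and CDKN1C in chromosome order (horizontal axis, not to distance), with members in bold and 1 point per array as in the plot of member ratios. MEST is at -5.26 to -3.92, and among its 20 neighbours PODXL is at least 1.5-fold lower on all 4 arrays, with a mean of -0.83. In the CDKN1C row KCNQ1OT1 is low in sh-G1 only, at -1.21 and -0.94.

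In the cluster of IGF2, H19 and CDKN1C, 0 of 13 measured listed genes passed limma, against 0.138% higher and 0.7% lower over all kept probes. Their means ran from -0.52 to 0.16. KCNQ1OT1, the paternally expressed antisense RNA that silences CDKN1C in cis, was at the low end, and was picked out after its values were seen. Its brighter probe gave -1.21 and -0.94 in sh-G1 and 0.00 and 0.07 in sh-G2, a clone difference of -1.11 (95% interval -1.46 to -0.75, limma adjusted p = 0.128). Its second probe gave a smaller difference of -0.25 (-0.49 to 0.00), so the probes disagree in size.

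Of all 68 measured neighbours and other imprinted genes, 0 passed limma in either direction, where 0.138% of all kept probes were called higher and 0.7% lower, and 8 had an unadjusted p under 0.05, as did 13.3% of all kept probes. With the clone as a random block over 4 arrays, 3 of them passed, NAP1L5 higher and COL1A2 and SLC67A1 lower. That fit called 847 probes higher and 1723 lower among all 39152 kept probes. The second probes of COL1A2 and SLC67A1 had means of 0.01 and 0.16, against -0.33 and -0.25 for the called probes. NAP1L5, a paternally expressed nucleosome assembly gene, came closest to the threshold, with 0.56 and 0.53 in sh-G1 and 0.53 and 0.35 in sh-G2 (mean 0.49, limma adjusted p = 0.092). Its second probe lay between -0.11 and 0.07, so no change can be stated for the gene. In the clone difference 0 of the 68 genes passed, and 6 had an unadjusted p under 0.05 by limma, against 7.43% of all kept probes.

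Genes that write and guard imprints were looked at as a group. Of 19 measured genes of this kind, among them the DNA methyltransferase DNMT1, its partner UHRF1 and the corepressor TRIM28, 0 passed limma in either direction, against 0.138% higher and 0.7% lower over all kept probes, and 0 had an unadjusted p under 0.05, against 13.3%. Their mean log2 ratios ran from -0.14 (DNMT3A) to 0.17 (SMCHD1), with a median of 0.04. DNMT1 itself was at 0.24 and 0.06 in sh-G1 and at -0.69 and 0.28 in sh-G2, so 1 array stood apart.

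Measured by likeness, the genes whose 4 log2 ratios lay near those of MEST included BEX1, SOX2, NAP1L3 and UCHL1, with root mean square differences of 0.55, 0.73, 0.87 and 0.97 over 4 arrays. BEX1, a small brain-expressed X-linked gene, had -4.08 and -4.24 in sh-G1 and -4.61 and -4.39 in sh-G2. SOX2, a transcription factor of stem cells, was like MEST lower in sh-G2 than in sh-G1, with -2.89 and -3.74 in sh-G1 and -4.47 and -4.79 in sh-G2. None of these 4 is on the list of imprinted genes used here. The root mean square difference counts the size of the ratios as well as their pattern over the arrays, and shared regulation was not tested.

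Markers of ovarian epithelial cells, fibroblasts and leukocytes were set beside the values of MEST. Of the ovarian epithelial list, 9 of 9 genes were measured, all well above background on every array, and KRT8 and KRT18 fell (limma). KRT18 had a mean of -2.32 (adjusted p = 0.036) and KRT8 of -1.03 (adjusted p = 0.032), while the means of PAX8, KRT7, KRT19, CDH1 and MUC16 lay between -0.02 and 0.04. EPCAM (mean -0.33) and MUC1 (mean -0.10) did not pass the test. With these and both keratins, 4 of the 9 genes were below 0 on all 4 arrays, against 9.05% of all kept probes. The summed processed signal of the list was 10118 to 16491 in ctrl and 5119 to 7944 in the knockdown clones.

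Of the fibroblast list, 6 of 7 genes were measured and 5 were below 0 on all 4 arrays, against 9.05% of all kept probes. LUM, a proteoglycan of the connective tissue matrix, had log2 ratios of -4.65 and -4.51 in sh-G1 and -2.08 and -2.01 in sh-G2. DCN, another, had -4.12 and -4.37 in sh-G1 and -2.08 and -2.11 in sh-G2. Both were lower in sh-G1 than in sh-G2, with an adjusted p = 0.019 for LUM and an adjusted p = 0.031 for DCN (limma clone difference). COL3A1 rose, with a mean of 0.90 (limma adjusted p = 0.035). From the same arrays the paper lists LUM as downregulated and COL3A1 as upregulated. The summed signal of the list, 42934 to 79333 in ctrl and 46418 to 64458 in the knockdown clones, overlapped. All 5 measured leukocyte markers lay between -0.28 and 0.27 on the 4 arrays. The part of these markers in the low MEST ratios was not tested. Knockdown of GALNT3 and a difference of the single ctrl clone from both knockdown clones cannot be told apart in these ratios.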

How the data were processed

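RNA of 2 GALNT3 knockdown clones and 1 ctrl clone was compared on 4 two-colour arrays on 1 slide. The authors scanned the arrays with Agilent Feature Extraction (10.5.1.1 per the file headers, 8.5.1.1 in the submitters' processing notes), which gave the deposited intensity per spot and channel and a log10 ratio of Cy5 over Cy3. The deposited series matrix repeats this log10 ratio for 3 arrays, and for sh-G1 replicate 2 its column holds the error of the ratio.

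Median spot and background intensity, the only raw intensity given, was corrected with normexp (offset 50) and loess-normalised within each array in limma 3.58.1 (R 4.3.3), which gave log2 ratios turned to knockdown over ctrl. These log2 values, computed from the deposited intensity, were averaged over spots of a probe without outlier-marked spots (145 to 215 per array), and a probe stayed in if, on every array, one channel or both carried the software's mark for a signal well above background (39152 of 41000). Accessions were named through RefSeq, which matched 25398 probes. A gene is given by its brightest probe unless stated.

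Knockdown over ctrl of the members was not tested. The clone difference was fitted on 4 arrays with a dye term, and other genes on the means of 2 clones against 0, both with eBayes with trend, Benjamini-Hochberg adjustment over all kept probes and a threshold of 0.05. The second fit leaves out the spread of ctrl. Both fits were tested on simulated data. Named were GALNT3, every member, listed genes past limma or 1.5-fold on all 4 arrays, and the 5 genes nearest to MEST, of which 1 is not reported here. Other genes were named after their values were seen. The members and lists were chosen with earlier results of these data known. The number of arrays limits the precision. Alternatives were background correction, centring, filters, thresholds, arrays left out and other fits.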

Additional observations from a re-analysis of the deposited data

Results flagged for a closer look

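Among the genes set beside the members, LUM and DCN differed between the knockdown clones by limma's test of the difference, LUM with sh-G1 minus sh-G2 = -2.53 on the log2 scale (adjusted p = 0.019) and DCN with -2.15 (adjusted p = 0.031). Both are fibroblast markers and no imprinted genes. The p-values of this test measure only the spread between arrays of the same clone. By its brightest probe, no member and no other imprinted gene on the lists was called in this test.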

How the results depend on the processing

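With a 2-fold threshold 1 member, MEST, was lower on all 4 arrays in place of 2. The count was 2 or 3 under the other alternatives, 3 with median centring, in the series matrix, by the mean of the clones and without replicate 1 of sh-G1, where H19 joined, and 2 to 3 over the arrays left out in turn. With the software's own log ratio 3 members (MEST, PEG10 and H19) were below 0 on all arrays in place of 5, and CDKN1C and DLK1 were not. MEST stayed between -5.22 and -3.98 and PEG10 between -0.84 and -0.69 under every alternative run. SGCE ranged from -0.30 to 0.16 as arrays were left out. In the series matrix MEG3 was at 0.33, PEG3 at 0.11 and IGF2 at -0.22, with the dyes of its 3 arrays not balanced. No member was called between the clones under any of 9 alternatives, and leaving out 1 array, chosen after the data were seen, kept the MEST clone difference between 1.18 and 1.30, as a value with no test. The alternatives for the count of members below 0 were also added then.

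Of the neighbouring, other imprinted and maintenance genes, 1 was called higher in the series matrix. With clone as a random block 1 was called higher and 2 lower, at a consensus correlation of -0.66 between arrays of a clone. In the other alternatives run, 0 were called. Over all probes, limma called 54 higher and 274 lower, against 123 and 414 with the software ratio, 847 and 1723 with the random block, 215 and 787 in the series matrix and up to 338 and 889 with 1 array left out. The 1.5-fold counts of 90 and 360 became 35 and 187 at 2-fold, 261 and 659 by the mean of the clones and 140 and 603 in the series matrix, and without replicate 1 of sh-G1 136 were higher. The 43 calls between the clones became 87 with the software ratio and 5 without the dye term. The causes were not tested. Knockdown and ctrl were paired within each array by the ratio. Beyond the dye term there was no pairing by replicate number, because that number marks the dye orientation. A slide block was not possible because all arrays share 1 slide.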
